A study of Homo sapiens with 6 samples.

Results

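The small leucine-rich proteoglycans are secreted matrix proteins, and 10 of their genes are described here: DCN, BGN and ASPN of class I, LUM, FMOD, PRELP, KERA and OMD of class II, and EPYC and OGN of class III. The family was selected on earlier results of this same contrast, the log2 differences of DCN and LUM, which are given below as a description. All 10 members were found, each as 1 row of the array table, out of 18404 genes. The cells were BE(2)-C, an established MYCN-amplified human neuroblastoma line, grown in medium with dialyzed serum. The comparison holds 3 arrays of cells given 5 µM BIX01294, which inhibits the H3K9 methyltransferases encoded by EHMT2 and EHMT1, for 24 h and 3 arrays of cells given the solvent, 0.05% DMSO, for 24 h. The treated samples carry no label for their own DMSO content, and all 6 samples are of a single line. The samples of a group are called independent by the submitters, but separate cultures or days are not recorded, so the errors below measure the spread between these samples.

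These proteins share a small core built of leucine-rich repeats with cysteines at both flanks. Most carry glycosaminoglycan chains: chondroitin or dermatan sulfate on the DCN and BGN products of class I, and keratan sulfate on several members of class II. Many bind collagen and control how fibrils form and how thick they grow. In connective tissue they also bind growth factors and receptors: decorin, the product of DCN, binds TGF-β and several receptor tyrosine kinases, and soluble biglycan, from BGN, binds Toll-like receptors. Fibroblasts, chondrocytes, osteoblasts and corneal keratocytes are their usual sources. LUM, KERA, EPYC and DCN lie next to each other at 12q21, OGN, OMD and ASPN at 9q22, and FMOD and PRELP are neighbours on chromosome 1.

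The values are log2 expression values per gene and array, with array medians of 6.94 to 7.01. The table has no detection call. As a guide to dim signal, the 95th percentile of 340 olfactory receptor genes, a family not expected in such cells, was 6.22 to 6.44 on the 6 arrays, and a gene at or below that value on its array is called dim here. This places signals and does not rank transcripts, since probes of different genes differ in brightness. In limma over all 18404 genes, 23.6% passed an adjusted p of 0.05, 12.9% higher and 10.7% lower in BIX01294. The line was checked against 13 measured markers of adrenergic neuroblastoma cells, and all 13 were above the dim reference on every array.

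DCN, LUM, BGN and PRELP were the members with signal above the dim reference on all 6 arrays, and these 4 were lower in BIX01294 with no overlap between the groups. The other 6 were dim in DMSO, and 5 of them, KERA, EPYC, OGN, OMD and ASPN, were dim on every array of both groups. In the fit over all genes 4 members were called lower and 1, OMD, higher, against 10.7% lower and 12.9% higher among all genes. Groups that do not overlap, in the lower direction, were found in 4 members and in 18.7% of all genes, and in the higher direction in 0 members and in 21.4% of all genes. The family was chosen with this contrast in view, so these counts are a description and no p-value is given for a member. The median difference of the 10 members was 0.04 on the log2 scale and their mean -0.14, while the median of all genes was -0.01.

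**Figure D1:**
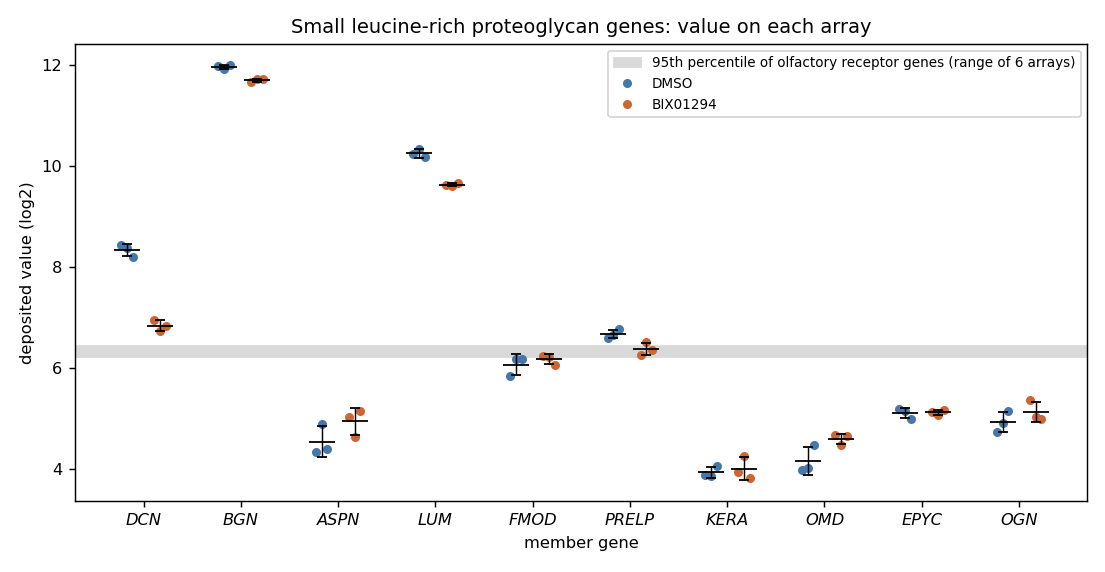
Deposited log2 value (vertical axis) of each member (horizontal axis) on each array, DMSO in blue and BIX01294 in orange, with the mean and SD of 3 arrays as black bars and the range of the dim reference in grey. DCN, BGN, LUM and PRELP are lower on all 3 BIX01294 arrays, and KERA, EPYC, OGN, OMD and ASPN lie under the grey band in both groups.

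Decorin was the member that differed most. DCN, row 7965410 of the table, measured 8.43, 8.38 and 8.20 on the DMSO arrays and 6.94, 6.73 and 6.82 on the BIX01294 arrays. The 2 groups were 1.26 apart at their nearest points. The difference was -1.50 ± 0.081 (SE) on the log2 scale, a 2.84-fold fall with a 95% confidence interval of 2.49 to 3.23. In BIX01294 the signal stood at 35.3% of its DMSO level and was still above the dim reference on all 3 arrays. DCN ranked 15th among the falls of all 18404 genes by size of the log2 difference. A fall of at least 2-fold that passed the test was seen in 0.364% of genes. The family was selected on this difference of DCN, so a high rank followed from the selection and is given as a description. In a bulk sample, fewer cells that make a transcript and less of it per cell cannot be told apart.

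Biglycan, the class I relative of decorin, fell by much less. BGN, row 8170648, measured 11.99, 11.92 and 11.99 in DMSO and 11.67, 11.72 and 11.72 in BIX01294. The groups lay 0.20 apart, and the pooled SD within groups was the smallest of the 10 members, 0.036 against a median of 0.086 over all genes. The difference was -0.26 ± 0.053 (SE), a 1.20-fold fall with a 95% confidence interval of 1.10 to 1.31. The fall of DCN exceeded that of BGN by 1.24 on the log2 scale.

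Lumican, a class II member that spaces collagen fibrils in the cornea and other tissues, lay between them. LUM, row 7965403, measured 10.24, 10.34 and 10.17 in DMSO and 9.63, 9.60 and 9.65 in BIX01294. All 3 treated values lay at least 0.52 under the lowest control value. The difference was -0.62 ± 0.060 (SE), a 1.54-fold fall with a 95% confidence interval of 1.40 to 1.69. The fall of DCN exceeded that of LUM, its neighbour at 12q21, by 0.88 on the log2 scale. The SD of the DCN to LUM difference was 0.090 over the DMSO arrays and 0.098 over the BIX01294 arrays. Both genes served in the selection, so these values are a description.

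PRELP, a class II protein with a heparin-binding end that anchors basement membranes to connective tissue, was close to the dim reference. PRELP, row 7908924, measured 6.60, 6.64 and 6.76 in DMSO and 6.26, 6.50 and 6.35 in BIX01294, and the groups were 0.10 apart. The difference was -0.30 ± 0.078 (SE). Its call was lost without BIX01294 replicate 1 or 3, without DMSO replicate 2 or 3, and when all rows of the table were tested. DCN, LUM and BGN were called lower in all 15 alternatives run for each. The family was selected on DCN and LUM in these same arrays, so their calls in the alternatives are a description. FMOD, the neighbour of PRELP on chromosome 1, encodes fibromodulin, which binds collagen and takes part in its cross-linking. FMOD measured 5.83, 6.18 and 6.17 in DMSO and 6.24, 6.21 and 6.06 in BIX01294, so the groups overlapped. It was at or below the dim reference on 5 of 6 arrays, and its difference of 0.11 had a 95% confidence interval of -0.13 to 0.34.

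The 3 members at 9q22 were dim and had higher means in BIX01294. OMD, osteomodulin of mineralised tissue, measured 3.97, 4.02 and 4.47 in DMSO and 4.66, 4.47 and 4.64 in BIX01294. DMSO replicate 3 and BIX01294 replicate 2 held the same value, so the groups touched. On every array OMD lay below the median of the olfactory receptor genes, which was 4.78 to 4.87. The difference of 0.44 ± 0.128 (SE) passed the threshold of the fit, but not without BIX01294 replicate 1 or 3, without DMSO replicate 1 or 2, or when all rows were tested. ASPN, asporin, a class I protein that binds TGF-β and collagen, measured 4.32, 4.88 and 4.38 in DMSO and 5.03, 4.63 and 5.15 in BIX01294. Its groups overlapped, its difference was 0.41 ± 0.172 (SE), and it passed only without BIX01294 replicate 2 or without DMSO replicate 2. OGN, osteoglycin or mimecan, differed by 0.20 with a 95% confidence interval of -0.09 to 0.49, and its groups overlapped. ASPN, OMD and OGN had pooled SDs of 0.288, 0.207 and 0.204 within groups, more than that of DCN (0.113) or LUM (0.061). No fold is given for these dim genes.

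The other members at 12q21 were dim, with small differences. KERA encodes keratocan of the cornea and measured 3.88, 3.85 and 4.05 in DMSO and 3.92, 4.25 and 3.82 in BIX01294. EPYC encodes epiphycan of growth plate cartilage and measured 5.17, 5.14 and 4.99 in DMSO and 5.12, 5.06 and 5.15 in BIX01294. Both overlapped between the groups. The 95% confidence interval of the difference was -0.19 to 0.33 for KERA and -0.14 to 0.16 for EPYC, and at this signal a change in low transcript levels could be missed.

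**Figure D2:**
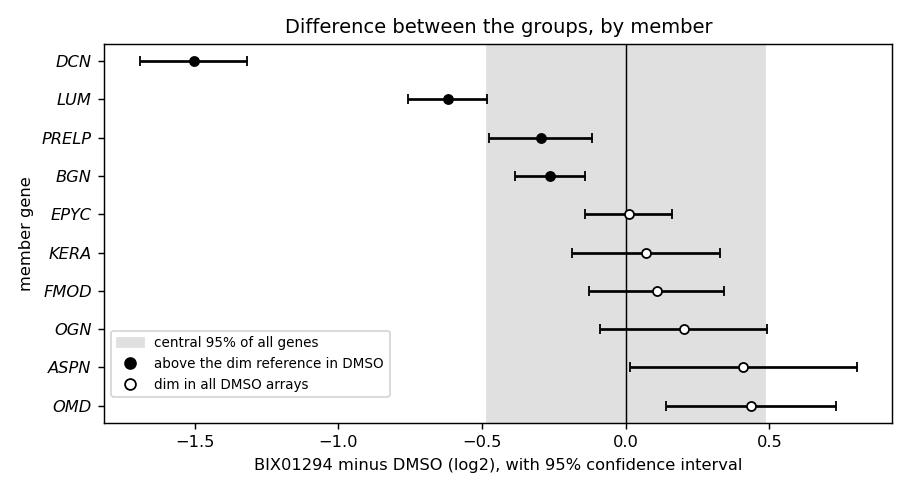
Log2 difference, BIX01294 minus DMSO (horizontal axis), with its 95% confidence interval for each member (vertical axis), over a grey band that holds the central 95% of all genes, from -0.48 to 0.48. DCN at -1.50 and LUM at -0.62, the differences on which the family was selected, lie left of the band. The open points mark members that were dim on all DMSO arrays.

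RefSeq promoter windows (GRCh38.p14) were at hand for 6 of the 10 members: BGN, PRELP, EPYC, FMOD, ASPN and OGN, the last with 2 start sites. The 250 bases before the start are shown for BGN and PRELP, which fell, and for EPYC, which shares a cluster with DCN and LUM and had a difference near 0. Capitals mark every match, on either strand, to 6 motifs: the TATA box as TATAAA, the CCAAT box, the E-box bound by MYC proteins as CACGTG, the AP-1 site as TGACTCA, the core of the C/EBP-ATF element as TGATGNAA and the GC box of SP1 as GGGCGG. No marked matches overlap. BGN lies on the plus strand, window chrX:153494730-153494979; PRELP on the plus strand, window chr1:203475556-203475805; EPYC on the minus strand, window chr12:91004973-91005222.
BGN: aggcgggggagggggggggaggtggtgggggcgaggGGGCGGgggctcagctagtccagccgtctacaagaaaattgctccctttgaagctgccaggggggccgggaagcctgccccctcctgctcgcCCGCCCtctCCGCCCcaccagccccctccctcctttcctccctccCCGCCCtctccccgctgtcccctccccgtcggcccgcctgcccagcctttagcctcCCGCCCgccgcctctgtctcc
PRELP: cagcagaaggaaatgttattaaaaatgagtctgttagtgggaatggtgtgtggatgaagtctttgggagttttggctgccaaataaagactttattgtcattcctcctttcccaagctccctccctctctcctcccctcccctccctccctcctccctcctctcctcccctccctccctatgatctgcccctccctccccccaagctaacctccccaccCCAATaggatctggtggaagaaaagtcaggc
EPYC: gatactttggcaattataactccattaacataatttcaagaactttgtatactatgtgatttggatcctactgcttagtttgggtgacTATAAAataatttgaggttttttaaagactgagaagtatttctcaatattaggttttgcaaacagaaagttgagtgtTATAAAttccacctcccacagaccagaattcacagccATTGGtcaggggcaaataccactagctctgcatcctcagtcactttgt
No window was at hand for DCN and LUM, the members that fell most. The windows of BGN and PRELP differed in base composition. The BGN window was 74.0% G and C with 16 CG dinucleotides and held 5 GGGCGG matches, a motif found in 42.3% of 27305 windows of this length. The PRELP window was 52.8% G and C, held 0 CG dinucleotides and had 1 CCAAT match 31 bases before the start, a motif present in 33.0% of windows. The EPYC window was 35.6% G and C, with TATAAA matches 162 and 85 bases before the start (a motif in 11.1% of windows) and a CCAAT match at 48. TGATGNAA, present in 3.19% of windows, was found in ASPN alone among the 6 genes. No CACGTG (6.49% of windows) or TGACTCA (4.16%) was found in these windows. The median window was 58.0% G and C with 11 CG dinucleotides.

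Genes beside the 3 chromosomal groups were read from the same fit. These were the 31 measured protein-coding genes within each group or among the nearest 5 on each side: 4 were higher, 3 lower and 24 did not pass, or 22.6% called against 23.6% of all genes. Their median difference was -0.03. Beyond DCN the nearest measured gene is BTG1, an antiproliferative factor, which measured 10.30, 10.33 and 10.21 in DMSO and 9.43, 9.44 and 9.40 in BIX01294. BTG1 fell by 0.86 on the log2 scale (adjusted p 6.62e-05 in limma), with no overlap. The 12q21 neighbourhood did not move one way: EEA1, an endosomal tethering protein, rose by 0.55 (adjusted p 0.000373 in limma), DUSP6, an ERK phosphatase, rose by 0.52 (adjusted p 0.0029 in limma), and CCER1, the nearest measured gene on the EPYC side, differed by -0.14 (adjusted p 0.203 in limma).

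At 9q22 the gene CENPP, which encodes a centromere protein, spans OGN, OMD and ASPN in the RefSeq annotation. CENPP measured 9.53, 9.48 and 9.40 in DMSO and 9.87, 9.76 and 9.80 in BIX01294. It rose by 0.35 ± 0.061 (SE; adjusted p 0.00481 in limma), in the direction of the means of the 3 dim members inside it. Whether signal from CENPP reaches the probes of these members was not tested. In the same neighbourhood BICD2, a dynein adaptor, rose by 0.30 (adjusted p 0.00532 in limma) and IARS1, an isoleucyl-tRNA synthetase, fell by 0.36 (adjusted p 0.0016 in limma). Near FMOD and PRELP, ZC3H11A, an RNA export factor, fell by 0.27 (adjusted p 0.0116 in limma) and was the gene that passed among 10.

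**Figure D3:**
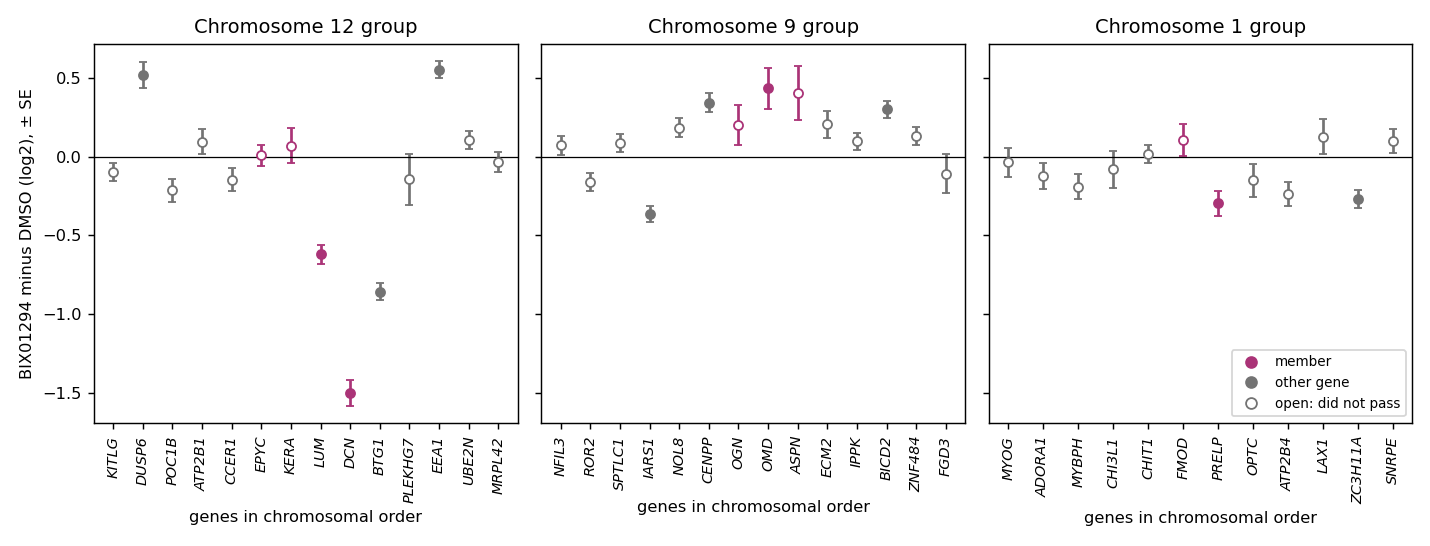
Log2 difference, BIX01294 minus DMSO, with its SE (vertical axis) for members (purple) and neighbouring genes (grey) in chromosomal order, spaced evenly; filled points passed the fit over all genes. DCN, LUM and BTG1 stand below the other genes of the chromosome 12 group, and the OGN, OMD and ASPN points lie above 0 beside CENPP.

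None of the 8 other genes of the family passed limma (0 higher, 0 lower; 1 at an unadjusted p under 0.05, and 0 with an intensity trend and robust estimation). Their median was -0.06. ECM2, which lies beside ASPN, had the largest difference, 0.21 ± 0.084 (SE; adjusted p 0.119 in limma), and was dim on every array. TSKU, tsukushi, a secreted modulator of BMP and Wnt signals, was well above the dim reference and measured 10.29 ± 0.07 in DMSO and 10.25 ± 0.10 in BIX01294 (SD, n = 3 per group).

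Genes that build chondroitin and dermatan sulfate, the chains on decorin and biglycan, moved in both directions. Of 27 measured, 7 were higher and 2 lower (33.3% called), with a median of 0.05. DSEL and its homologue DSE encode the epimerases that turn chondroitin into dermatan sulfate. DSEL measured 8.62, 8.61 and 8.46 in DMSO and 7.59, 7.75 and 7.77 in BIX01294. DSEL fell by 0.86 on the log2 scale (adjusted p 0.000217 in limma), and the groups did not overlap. CHST15, which adds a second sulfate to chondroitin, fell by 0.72 (adjusted p 0.00162 in limma), from 8.38 ± 0.18 to 7.65 ± 0.11 (SD, n = 3 per group). CHST11, a chondroitin 4-O-sulfotransferase, rose by 0.42 (adjusted p 0.0037 in limma), and CHPF2, of the chain polymerising enzymes, rose by 0.36 (adjusted p 0.00379 in limma). DSE differed by -0.07 ± 0.073 (SE), and XYLT1, which starts the chains, by -0.004 ± 0.084 (SE). The fits without DMSO replicate 1, 2 or 3 counted 3, 4 and 2 higher genes in this list, and those without BIX01294 replicate 1, 2 or 3 counted 3, 2 and 3.

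In keratan sulfate synthesis, which serves LUM, FMOD, KERA and OMD, 3 of 12 genes rose and 0 fell (25.0% called), with a median of -0.002. B3GNT2, which extends the poly-lactosamine backbone, rose by 0.37 (adjusted p 0.00661 in limma), the core fucosyltransferase FUT8 by 0.35 (adjusted p 0.00337 in limma) and the sialyltransferase ST3GAL2 by 0.28 (adjusted p 0.022 in limma). ST3GAL2 lost its call without BIX01294 replicate 2, without DMSO replicate 3 and when all rows were tested.

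Among 28 genes of ligands, receptors and signalling partners of these proteins, 4 rose and 4 fell (28.6% called), with a median of 0.02. Of the 28 genes, 10 were dim on every array of both groups. LRP1, an endocytic receptor of decorin, measured 8.26, 8.11 and 8.06 in DMSO and 7.43, 7.45 and 7.54 in BIX01294 and fell by 0.67 (adjusted p 0.000432 in limma). The receptor tyrosine kinase ERBB4 fell by 0.65 (adjusted p 0.000529 in limma) and was dim on 3 of 6 arrays. TLR4, a receptor of soluble biglycan, rose by 0.54 (adjusted p 0.015 in limma), with 3 of 6 arrays dim. The ligand TGFB1, which decorin, biglycan, fibromodulin and asporin bind, rose by 0.40 (adjusted p 0.00554 in limma), from 8.10 ± 0.09 to 8.51 ± 0.10 (SD, n = 3 per group). EGFR differed by -0.15 (adjusted p 0.0786 in limma), and MET and TLR2 were dim on every array. The count of falls was 2 without BIX01294 replicate 1 or 3 and without DMSO replicate 1 or 2, and also after centring on array medians.

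Among 15 enzymes and helpers of matrix processing, 1 rose and 2 fell (20.0% called), with a median of -0.11. PCOLCE2, an enhancer of procollagen processing, rose by 0.44 (adjusted p 0.00489 in limma). MMP2, gelatinase A, fell by 0.25 (adjusted p 0.0102 in limma), and the collagen cross-linking enzyme LOX, dim on every array, fell by 0.21 and lost its call in 9 of 13 alternatives, among them those without DMSO replicate 1 or 2 and without BIX01294 replicate 1, 2 or 3. BMP1, the protease that trims probiglycan, differed by 0.07 ± 0.065 (SE). Of 28 genes of other proteoglycans and their link proteins, 1 rose and 4 fell (17.9% called), with a median of -0.02. Syndecan SDC1 rose by 0.39 (adjusted p 0.00447 in limma). SDC3, SPOCK3 and the glypican GPC5 fell by 0.27 each, with GPC5 dim on every array. Leaving out any single array lowered the falls to 1 or 2, SDC3 did not pass once replicate 1 or 2 of either group was left out, and SPOCK3 did not pass once any one of the 6 arrays was left out.

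**Figure D4:**
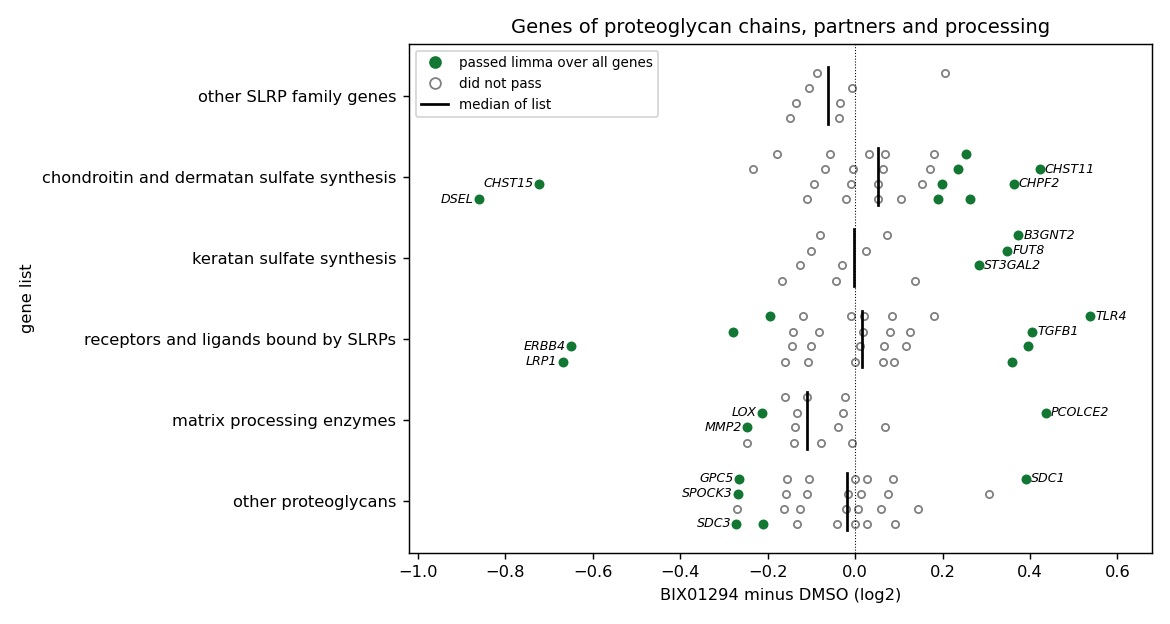
Log2 difference, BIX01294 minus DMSO (horizontal axis), of each gene in 6 lists (vertical axis), filled green where it passed limma over all genes, with the list's median as a black bar; vertical scatter within a list carries no value. DSEL, CHST15, LRP1 and ERBB4 fell by 0.65 to 0.86, and all 6 medians lie between -0.11 and 0.05.

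Decorin and lumican are also products of fibroblast-like cells, a state that neuroblastoma cultures can hold, so markers of other cell types are given beside them. Of 24 mesenchymal markers, 6 rose and 3 fell (37.5% called), with a median of -0.01. The summed linear signal of the list was 14889 to 15135 on the DMSO arrays and 15302 to 16260 on the BIX01294 arrays, while its mean log2 value overlapped between the groups, at 7.69 to 7.71 in DMSO and 7.68 to 7.79 in BIX01294. The largest parts of the rise in the sum came from VIM, with linear means of 1350 in DMSO and 2382 in BIX01294, and THY1, with 2128 and 2880. The rise of VIM alone, 1032, exceeded the rise of the whole list, 807. The largest falls were those of PDGFRB, from 1032 to 463, LGALS1, from 5033 to 4523, and TWIST1, from 1746 to 1455. PDGFRB, a growth factor receptor of pericytes and fibroblasts, measured 10.03, 10.04 and 9.97 in DMSO and 8.82, 8.90 and 8.85 in BIX01294 and fell by 1.16 (adjusted p 1.64e-05 in limma). The intermediate filament gene VIM rose by 0.82 (adjusted p 0.000132 in limma), CD44 by 0.49 (adjusted p 0.000696 in limma) and COL6A3, dim on 3 of 6 arrays, by 0.44 (adjusted p 0.0021 in limma). The collagen genes COL1A1 and COL1A2 differed by -0.004 ± 0.059 (SE) and -0.03 ± 0.061 (SE), and FN1, PRRX1, PDGFRA, FAP, POSTN and TAGLN were dim on every array, PDGFRA with a call in the lower direction.

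Of 13 adrenergic neuroblastoma markers, 4 rose and 4 fell (61.5% called), with a median of -0.08. All 13 lay above the array median on every array, so the 23.6% called among all genes is not a matched reference. When only genes at or above the median signal were tested, a larger share of genes passed than among all genes. Whether these markers were called more often than genes of similar signal was not tested. The summed signal of the 13 markers was 41566 to 42676 in DMSO and 41275 to 42469 in BIX01294, so the groups overlapped. TBX2 fell by 0.41 (adjusted p 0.00172 in limma) and GATA3 by 0.23 (adjusted p 0.019 in limma), while ISL1 rose by 0.34 (adjusted p 0.00372 in limma) and HAND1 by 0.24 (adjusted p 0.0127 in limma). GATA3 did not pass once BIX01294 replicate 3, DMSO replicate 1 or DMSO replicate 2 was left out. The count of rises was 2 without any one DMSO array or without BIX01294 replicate 1 or 2, and that of falls was 1 without BIX01294 replicate 3 or DMSO replicate 1 or 2. Of 9 Schwann and glial markers, 2 rose and 0 fell (22.2% called), with a median of -0.03: S100B by 0.42 (adjusted p 0.0177 in limma), lost without BIX01294 replicate 1 or 3, and GAP43, which neurons also express, by 0.38 (adjusted p 0.00432 in limma). The summed signal of these 9 genes was 1854 to 1902 in DMSO and 2136 to 2281 in BIX01294, with GAP43 at linear means of 1082 and 1414, and their mean log2 value overlapped, at 6.79 to 6.81 and 6.77 to 6.91. ERBB3, CDH19 and MBP of this list were dim on every array. The part of these cell types in the falls of DCN and LUM was not tested.

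The genes whose profile over the 6 arrays was most like that of DCN, by the root mean square difference of values set to each gene's DMSO mean among 17346 genes, were DDIT3, YPEL2, TRIB3 and LRRTM2, at 0.07, 0.10, 0.10 and 0.11. DDIT3 is a transcription factor and TRIB3 a pseudokinase of the stress response, and LRRTM2 is a synaptic protein that itself has leucine-rich repeats. Those most like LUM were the zinc finger genes ZNF615 and ZIK1, the LIM domain-binding cofactor LDB2 and WDR59, a subunit of the GATOR2 complex, at 0.02, 0.04, 0.03 and 0.04. Their differences between the groups were -1.41 to -1.55 in the first set and -0.61 to -0.65 in the second. Neither set held another member. The measure includes the difference between the groups, so similar differences follow from how these genes were picked. Shared regulation with DCN or LUM was not tested.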

How the data were processed

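RNA of 3 BIX01294 and 3 DMSO samples was measured on Affymetrix arrays, 1 array each. The deposited table holds log2 values, as read from the values themselves; Partek is the tool in the submitters' processing notes, and neither background correction nor normalization is stated there. Of 32321 rows, 19158 had 1 gene symbol, 1388 several and 11775 none in the annotation used. The row with the highest mean was kept for each of 18404 genes. RefSeq (GRCh38.p14) gave current names, gene order and promoter windows. limma 3.58.1 in R 4.3.3 was fitted with treatment as the only term, two-sided, with Benjamini-Hochberg adjustment over all genes and a threshold of 0.05; it was tested on simulated data. A called gene passed this threshold. The number of arrays limits the precision.

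Members and lists were chosen with earlier results of these data known. Named genes were all members, the called neighbours, up to 4 called genes with the largest change in each list (the largest difference where none was called) and the 4 profiles most like DCN and LUM; DSE, XYLT1, TSKU, EGFR, MET, TLR2, BMP1, CCER1, COL1A1, COL1A2, THY1 and the dim markers were added after their values were seen. Some list genes were not analysed here. Between arrays of a group, 23 to 40 rows held identical values and the median absolute difference was 0.083 to 0.116.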

Additional observations from a re-analysis of the deposited data

How the results depend on the processing

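The alternatives were quantile normalization, centring on array medians, 2 filters on dim genes, averaging the rows of a gene, testing all rows, robust estimation with an intensity trend, array weights, a replicate block and leaving out each array in turn. No member and no named gene changed direction where it was called, but calls were lost in 10 of the 72 refits of the 5 called members, all for PRELP and OMD, and in 32 of the 635 refits of the 43 other named genes that were called, from 6 of these genes. The count of members called lower was 3 or 4 throughout. The refits reuse the arrays in which DCN and LUM were selected, so this count is a description. The filters left 5 and 3 members to test.

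With all rows tested the counts were: members higher 0, chondroitin and dermatan sulfate genes higher 3, receptors and ligands lower 2, matrix processing lower 1, other proteoglycans lower 1, adrenergic markers higher 2, Schwann and glial markers higher 1. After centring, receptors and ligands lower, other proteoglycans lower and adrenergic markers lower were 2 each and matrix processing lower 1. Neighbours called lower were 5 with array weights and 6 with either filter, with the intensity trend or after quantile normalization, which also gave 2 adrenergic markers higher. The filter at the lower quartile left 0 members higher; that at the median left 0 members higher, 1 other proteoglycan lower, 2 higher and 1 Schwann and glial marker higher.

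Both groups carry the numbers 1 to 3, but same-numbered arrays deviated together with correlations of 0.19, -0.18 and 0.05, so the numbers were not taken as pairs. With the replicate block 1987 genes were higher and 1654 lower, against 2379 and 1970, the member counts stayed at 4 lower and 1 higher, matrix processing genes lower came to 1, and adrenergic markers to 2 higher and 2 lower.

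Leaving out one array gave 0 to 2 members higher, 2 to 4 chondroitin and dermatan sulfate genes higher, 2 to 3 receptors and ligands lower, 1 to 2 matrix processing genes lower, 1 to 2 other proteoglycans higher and 1 to 2 lower, 2 to 3 adrenergic markers higher and 1 to 3 lower, and 1 to 2 Schwann and glial markers higher. Signal near or below the dim reference limits what can be said of KERA, EPYC, OGN, OMD, ASPN, FMOD and PRELP.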
